A study of Mus musculus with 6 samples.

Results

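The MHC and antigen presentation genes are the mouse genes that build, load and regulate the peptide-presenting molecules of the major histocompatibility complex (MHC, called H2 in the mouse). They were taken by name: every gene with a symbol beginning H2-, together with B2m, Tap1, Tap2, Tapbp, Psmb8, Psmb9, Psmb10, Cd74, Ciita, Nlrc5, Erap1 and Ctss. RefSeq lists 62 such genes, and 46 of them had a probe on the array, which covered 20145 named genes in all. These 46 genes had 56 of the 55681 probes, and 16 genes that fit the rule had no probe.

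Whole hearts of C57/B6 mice aged 8 weeks were measured on 1-colour (Cy3) Agilent arrays, 1 heart per array. The KO-labelled group had 3 hearts of genotype PHD2/3f/f; Cre+/-, and the control group had 3 hearts of genotype PHD2/3f/f; Cre-/-, so both groups carried the floxed PHD2 and PHD3 alleles and differed in Cre. PHD2 and PHD3, encoded by Egln1 and Egln3, are oxygen-dependent hydroxylases that mark the hypoxia-inducible factors for destruction. The labels name neither the promoter that drives Cre nor the deleted exons nor the sex, and they describe a column preparation of heart RNA in one field and a blood RNA kit with globin removal in another.

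Class I molecules pair a heavy chain with beta-2-microglobulin and show peptides cut by the proteasome inside nearly any nucleated cell. Class II molecules pair an alpha with a beta chain, travel with the invariant chain Cd74 to an acidic compartment, and are made mainly by dendritic cells, macrophages and B cells. In the heart, resident macrophages and dendritic cells are the usual class II cells, while class I is also carried by endothelium and, at a low level, by cardiomyocytes.

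Several facts of the 6 arrays bear on these values. Egln1 was lower in the KO-labelled hearts, by -1.23 on the log2 scale with a standard error of 0.21, while Egln3 was higher by 1.98 ± 0.17 (SE), against its label; the position of either probe relative to the deleted exons is unknown here. The arrays shared 1 slide and 1 scan. KO-labelled arrays filled one column of slide positions and control arrays the other, so position and genotype cannot be told apart. The replicate number was also the row of the slide, so same-numbered KO-labelled and control hearts shared a row. The 75th percentile signal was 147 to 235, 46.3% to 51.0% of probes were well above background, and 0 were saturated. All 8 cardiomyocyte markers were above background, as the heart label implies. KO-labelled heart 2 stood apart in lymphocyte genes: Lck, a T cell kinase, stood at 3.02 there, against -0.38 and -0.44 in the other KO-labelled hearts and -1.81 to -1.26 in the controls. KO-labelled heart 1 stood apart in the neutrophil gene S100a9, with 5.54 against 1.48 and 2.07 in the other KO-labelled hearts and -0.03 to 2.04 in the controls. The differences of the 32 genes tested and of the genes taken from the other lists by a fixed rule were also computed without each heart in turn; the counts and summed signals of those lists were not.

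Values are log2 signals relative to the 75th percentile of the same array, and differences are KO-labelled minus control. A gene was called higher or lower when limma's Benjamini-Hochberg adjusted p over all features was under 0.05. Of the 46 genes, 32 were bright enough to test. Among them 12 were higher in the KO-labelled hearts, 1 was lower and 19 did not pass. Over all 20014 features tested, 16.1% were called higher and 23.0% lower, 39.1% in all. The median log2 difference of the 32 genes was 0.48, against -0.11 over all features, and 27 of the 32 differences were positive. The 3 KO-labelled hearts lay entirely above the 3 controls for 14 genes and entirely below them for 2, where the shares over all features were 22.7% and 33.1% (55.8% for either direction). Leaving out KO-labelled heart 2 left 9 of the 12 higher calls, and leaving out control heart 1 or control heart 3 left 8 in each case.

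**Figure D1:**
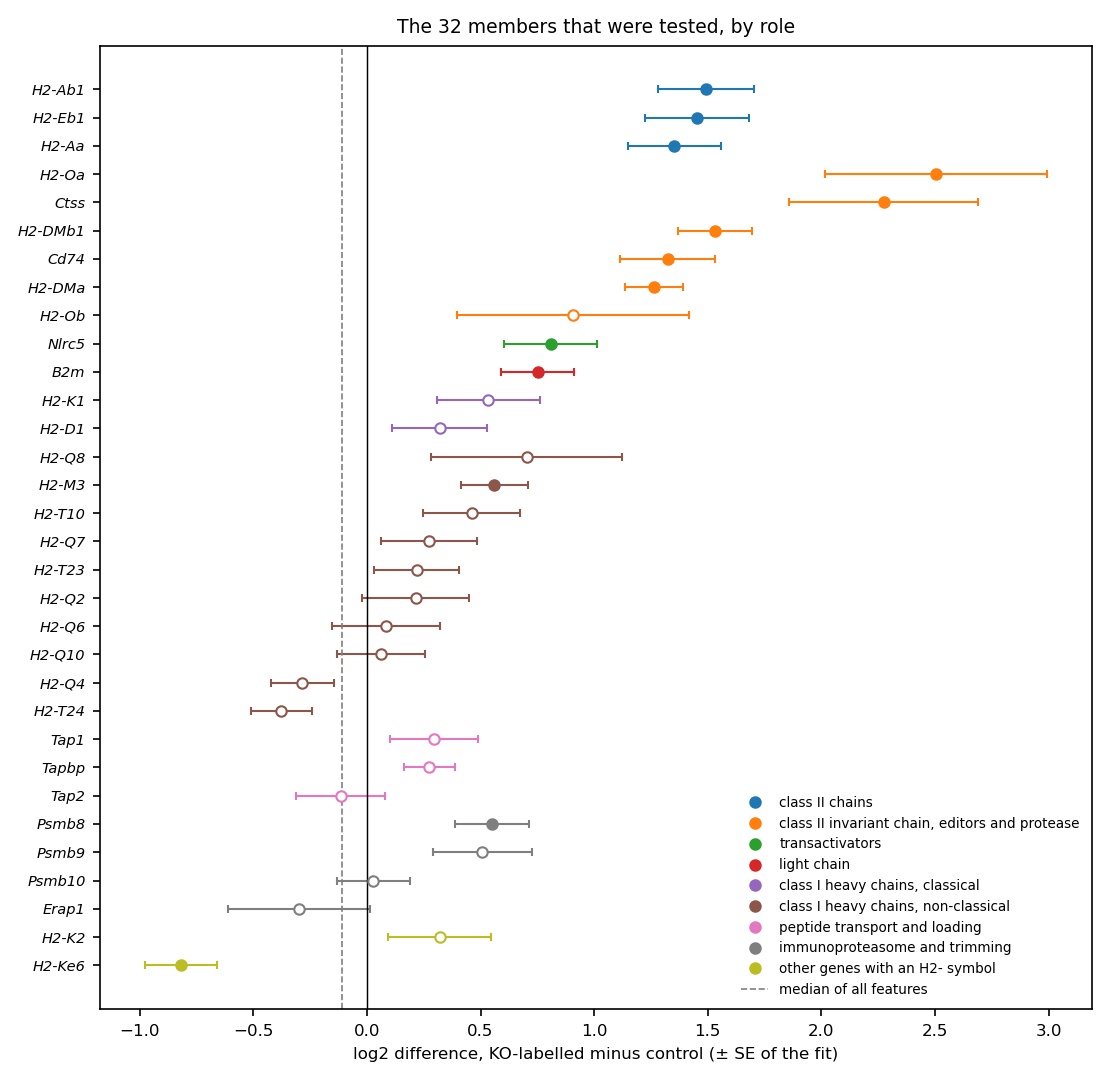
Log2 difference (x axis, KO-labelled minus control, with the standard error of the fit) of the 32 genes tested, grouped and coloured by role; filled points had an adjusted p under 0.05, and the dashed line is the median of all features, -0.11. The class II genes fill the range 0.91 to 2.50, the class I heavy chains -0.38 to 0.70, and H2-Ke6 lies lowest at -0.82. The ends of the class II range are H2-Ob and H2-Oa, which entered the test only through the KO-labelled group.

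The class II side held most of the calls. Of 11 class II genes with a probe, 9 were tested and 8 were higher in the KO-labelled hearts, with a median log2 difference of 1.45. Of the 9, H2-Oa and H2-Ob entered the test only through the KO-labelled group, where they were brighter. All 3 chains that were tested passed. The I-A alpha chain H2-Aa (NM_010378) stood at 2.37, 2.96 and 2.71 in the KO-labelled hearts and at 1.31, 1.60 and 1.07 in the controls. Every KO-labelled heart was above every control, and the difference was 1.35 ± 0.21 (SE, n = 3 and 3; adjusted p = 0.00508), or 2.55-fold. Its partner, the I-A beta chain H2-Ab1 (NM_207105), had 5.81, 6.49 and 6.39 in the KO-labelled hearts and 4.94, 4.70 and 4.57 in the controls. The groups were again separate, by 1.49 ± 0.21 (adjusted p = 0.00438). Another H2-Ab1 probe had 5.40, 6.12 and 6.01 in the KO-labelled hearts and 4.56, 4.30 and 4.08 in the controls, a difference of 1.53. H2-Eb1 (NM_010382), the beta chain of I-E, had 5.51, 6.33 and 6.17 in the KO-labelled hearts and 4.67, 4.57 and 4.41 in the controls. It differed by 1.45 ± 0.23 (adjusted p = 0.00553), and the differences of the 3 chains lay between 1.35 and 1.49. H2-Eb2, a further beta chain gene, was well above background on no array and was not tested.

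The upstream sequences of 3 genes from this group are shown because class II genes are known for a shared pair of promoter elements, an X box bound by the RFX complex and a Y box bound by NF-Y. Each line gives the 180 bases before the listed start, 5′ to 3′ on the gene's own strand, from RefSeq on GRCm38.p6: H2-Aa at chr17:34287824-34288003 (minus strand), H2-Eb1 at chr17:34305687-34305866 (plus strand) and H2-DMb1 at chr17:34153011-34153190 (plus strand). Capitals mark matches to an X box core, CTNGNAAC, and to the Y box, CCAAT or ATTGG on the other strand.
H2-Aa: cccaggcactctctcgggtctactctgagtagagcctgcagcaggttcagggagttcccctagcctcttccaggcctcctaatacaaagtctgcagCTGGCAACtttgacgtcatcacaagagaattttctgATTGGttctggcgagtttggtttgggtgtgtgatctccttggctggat
H2-Eb1: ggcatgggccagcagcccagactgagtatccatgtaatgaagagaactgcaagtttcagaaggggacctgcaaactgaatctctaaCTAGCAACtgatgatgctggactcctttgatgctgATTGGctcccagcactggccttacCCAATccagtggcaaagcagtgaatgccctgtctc
H2-DMb1: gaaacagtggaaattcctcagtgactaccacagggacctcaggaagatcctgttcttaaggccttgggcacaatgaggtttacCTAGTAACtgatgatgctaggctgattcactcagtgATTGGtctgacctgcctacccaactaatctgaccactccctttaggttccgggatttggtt
In all 3, the X box core was followed by ATTGG, with 36 bases from the start of one to the start of the other in H2-Aa, 35 in H2-Eb1 and 36 in H2-DMb1. H2-Ob held the same pair 33 bases apart. An X box core followed 30 to 40 bases on by ATTGG occurred in 4 of 10 class II entries and 0 of 21 class I heavy chain entries, against 0.0639% of all 32851 RefSeq windows of 300 bases (250 before the start and 50 after it). Taken singly, and on both strands, CTNGNAAC was in 5 of the 10 class II entries and 13.2% of all windows, and CCAAT in 8 of the 10 and 37.4% of all. ACGTG, a form of the core that hypoxia-inducible factors bind, was in 0 of the 10 class II entries and 19.6% of all windows. It was in 3 of the 21 class I heavy chain entries and 5 of the 39 entries of all genes in the set. No other form of that core was searched. The motifs were picked after the sequences were read, 3 of the 4 genes with the pair were called higher and the fourth, H2-Ob, did not pass, and a match of letters is not a site in use.

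The invariant chain and the peptide editors were called with the chains. Cd74, which blocks the class II groove until loading, stood at 4.65, 5.36 and 5.18 in the KO-labelled hearts and at 3.94, 3.66 and 3.62 in the controls. The KO-labelled hearts were all above the controls, by 1.32 ± 0.21 (SE; adjusted p = 0.00563). H2-DMa and H2-DMb1 encode the alpha and beta chains of the editor that exchanges the invariant chain fragment for peptide. H2-DMa had 0.93, 0.87 and 1.06 in the KO-labelled hearts and -0.35, -0.15 and -0.43 in the controls. Its hearts were the closest together of the class II genes tested within the KO-labelled group (SD 0.09), and the difference was 1.26 ± 0.13 (adjusted p = 0.00225). H2-DMb1 had 2.26, 2.67 and 2.60 in the KO-labelled hearts and 0.89, 1.19 and 0.87 in the controls. That is a difference of 1.53 ± 0.16 (adjusted p = 0.00244) with no overlap. The near copy H2-DMb2 was well above background on no array.

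H2-Oa and H2-Ob encode the chains of another editor, H2-O, which restrains H2-DM and is best known from B cells. H2-Oa had -1.59, -0.04 and -1.45 in the KO-labelled hearts and -4.27, -3.14 and -3.18 in the controls. All KO-labelled hearts were above all controls and the difference was 2.50 ± 0.49 (SE; adjusted p = 0.0102), but the probe was dim: it was above background in 3 KO-labelled hearts and 2 controls, and with another background correction (normexp) the difference was 0.86 (adjusted p = 0.0397). Like H2-Ob, it entered the test only through the KO-labelled group, so its call leans on that filter. With no filter on dim probes limma's adjusted p for H2-Oa was 0.032. H2-Ob had -3.19, -1.37 and -3.04 in the KO-labelled hearts and -3.97, -3.06 and -3.31 in the controls. Those groups overlapped, 3 KO-labelled hearts and 1 control were above background, and H2-Ob did not pass, at 0.91 ± 0.51 (adjusted p = 0.195). For both genes KO-labelled heart 2, the one with high lymphocyte genes, was the highest, and without it the differences were 2.01 for H2-Oa (adjusted p = 0.0130) and 0.33 for H2-Ob (adjusted p = 0.399). The part of that heart's lymphocyte signal in these values was not tested.

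Ctss, cathepsin S, the protease that trims the invariant chain in class II compartments, had 6.0, 4.70 and 5.41 in the KO-labelled hearts and 2.72, 3.81 and 2.76 in the controls. Its difference, 2.27 ± 0.42 (SE; adjusted p = 0.00831), was 4.84-fold. In the KO-labelled group Ctss was highest in heart 1 and lowest in heart 2, where the class II chains and Cd74 were lowest in heart 1 and highest in heart 2. Within the 9 class II genes tested, KO-labelled heart 2 was the highest of its group for 7, heart 1 for Ctss and heart 3 for H2-DMa.

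**Figure D2:**
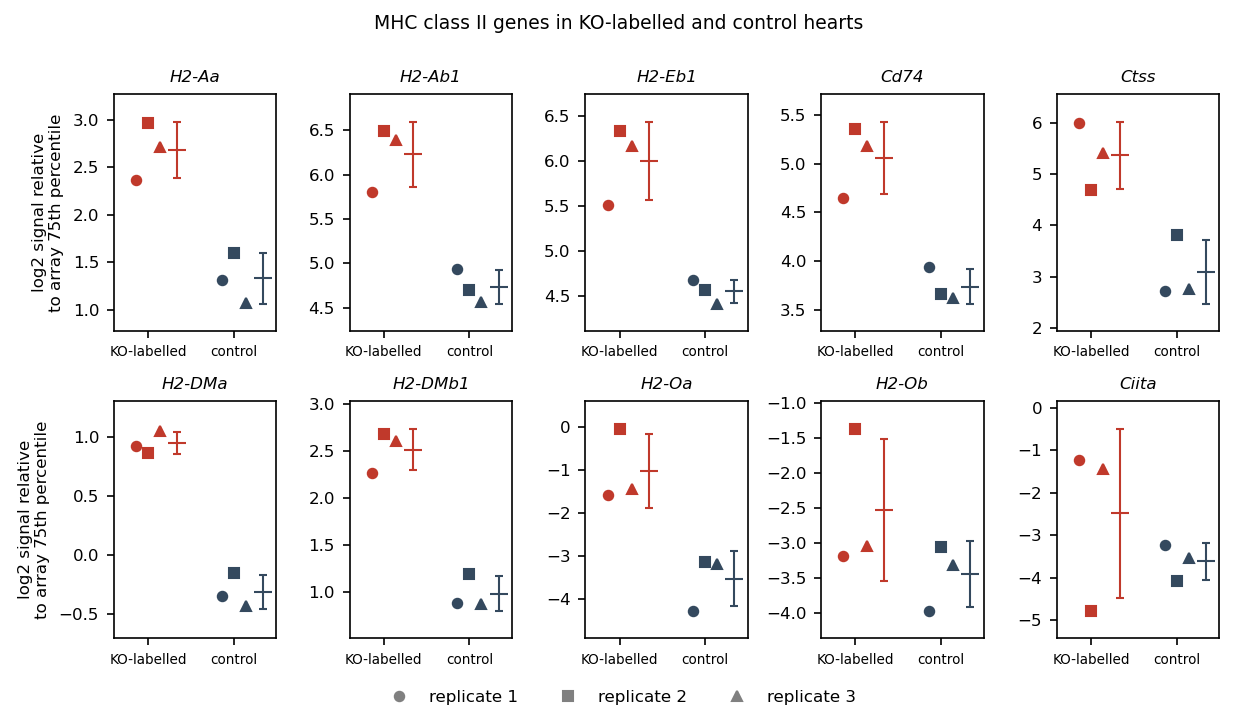
Log2 signal minus that array's 75th percentile (y axis, its own range in each panel) of 10 class II genes in each KO-labelled and control heart; marker shape gives the replicate number, and the bar and whiskers are the mean and SD of 3 hearts. The groups do not overlap for H2-Aa, H2-Ab1, H2-Eb1, Cd74, Ctss, H2-DMa, H2-DMb1 and H2-Oa, and overlap for H2-Ob and Ciita. Over all features, 22.7% had every KO-labelled heart above every control and 33.1% the reverse.

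The 8 class II calls were all kept without KO-labelled heart 2, with differences of 1.18 to 2.61, and under each of the other alternatives that tested all of them. Markers of the cell types that carry class II differed in the same hearts. Of 12 macrophage and monocyte markers tested, 8 were called higher and 1 lower in the KO-labelled hearts, among them the chemokine receptor Cx3cr1 (2.67) and the growth factor receptor Csf1r (0.95) on the higher side and the integrin Itgam (-0.51) on the lower. The calls of Csf1r and Itgam were lost without KO-labelled heart 3, control heart 1 or control heart 3, and with the replicate block. They were also lost with the mean of a gene's probes, at 0.64 for Csf1r (adjusted p = 0.0585) and -0.26 for Itgam (adjusted p = 0.269). Itgam further lost its call without KO-labelled heart 2, with dim probes kept and under spike-in scaling (adjusted p = 0.268). The summed linear signal of that list was 206 to 333 in the KO-labelled hearts and 136 to 180 in the controls, without overlap. Of 7 dendritic cell markers tested, 5 were called higher, including the transcription factor Batf3 (1.14) and the integrin Itgax (2.81). Flt3 and Cd209a among these 5, and Ccr2 among the macrophage calls, were above background in 3 KO-labelled hearts but 1 control. They entered the test only through the KO-labelled group, where they were brighter. The summed dendritic signal, 88.4 to 105 in the KO-labelled hearts and 85.5 to 115 in the controls, came almost wholly from the bright Siglech probe, so its overlap describes that probe and not the 5 markers called. Siglech did not pass (-0.09, with a sign that turned under other scalings), though with the mean of its probes it did (0.72, adjusted p = 0.0399). Of the markers of cross-presenting dendritic cells, Xcr1 was above background on no array. Clec9a was above background in 2 KO-labelled hearts and 0 controls and was not tested, with -3.20, -2.63 and -3.21 in the KO-labelled hearts and -4.67, -4.05 and -5.07 in the controls. Its groups did not overlap. Its KO-labelled mean, which includes a heart below background, was 1.88-fold above the controls raised to the lowest signal above background. Of 8 B cell markers, 3 were tested and 0 passed by limma (0 also at an unadjusted p under 0.05), and Pax5 and Blk were above background on no array. Cd79b, a chain of the B cell receptor complex, differed by 1.5 (adjusted p = 0.104), and by 0.79 without KO-labelled heart 2. The complement receptor Cr2, above background in 2 KO-labelled hearts and 3 controls, differed by -0.55 (adjusted p = 0.578), and by -1.46 without that heart (adjusted p = 0.0100). The summed B cell signals were 1.67 to 9.21 in the KO-labelled hearts and 1.11 to 2.29 in the controls. In bulk tissue, more cells of a type and more RNA per cell cannot be told apart, and the part of these cell types in the class II values was not tested.

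**Figure D3:**
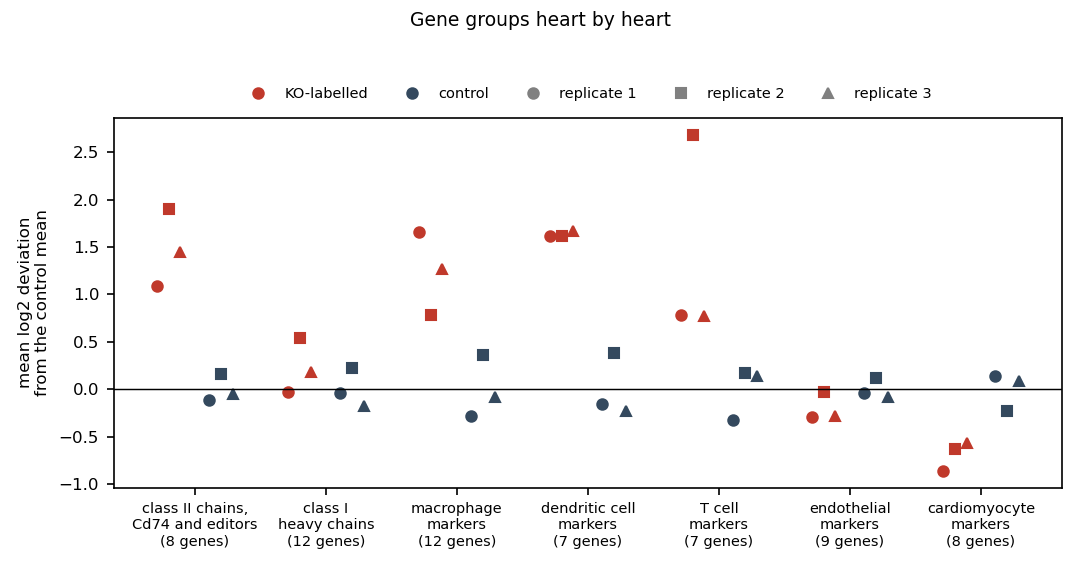
Mean log2 deviation from the control mean (y axis) of 2 groups of MHC genes and 5 marker lists, 1 point per heart, KO-labelled left of control within each group, with marker shape for the replicate number. The class II genes lie at 1.09, 1.90 and 1.45 in KO-labelled hearts 1, 2 and 3, the macrophage markers at 1.66, 0.79 and 1.27, and the T cell markers at 0.78, 2.68 and 0.77. The class II, macrophage, dendritic cell and T cell means include genes that entered the test only through the KO-labelled group.

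Heart by heart, these groups did not run in parallel. The mean deviation from the control mean of 8 class II genes (the 9 without Ctss) was 1.09, 1.90 and 1.45 in the KO-labelled hearts and -0.11, 0.16 and -0.05 in the controls. Macrophage markers had 1.66, 0.79 and 1.27 in the KO-labelled hearts and -0.28, 0.37 and -0.08 in the controls, so KO-labelled heart 2 was highest for the class II genes and lowest for the macrophage markers. Ctss had the macrophage markers' order of KO-labelled hearts. Dendritic cell markers were level across the KO-labelled hearts at 1.62, 1.61 and 1.67, against -0.15, 0.38 and -0.23 in the controls. T cell markers had 0.78, 2.68 and 0.77 in the KO-labelled hearts and -0.32, 0.18 and 0.14 in the controls. These orders are over 3 hearts and were not tested. The means run over tested genes only, and some of these entered the test only through the KO-labelled group, where they were brighter. Among the class II genes these were H2-Oa and H2-Ob, and among the macrophage markers Ccr2. Among the dendritic cell markers they were Flt3 and Cd209a, and among the T cell markers Cd3d and Cd5. The height of the KO-labelled means therefore leans on that filter.

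The transactivators are the master regulators of the 2 classes: Ciita switches on class II genes and Nlrc5 class I genes. Ciita stood at -1.22, -4.77 and -1.45 in the KO-labelled hearts and at -3.24, -4.07 and -3.53 in the controls. It was above background in 2 KO-labelled hearts and in 0 controls, so it was not tested among the 32, and the groups overlapped through KO-labelled heart 2, the heart with the highest class II chains. With no control above background, the mean of the 3 KO-labelled hearts was 2.17-fold above the controls raised to the lowest signal above background. KO-labelled heart 2, below background itself, entered that mean as measured, so 2.17-fold is not a firm lower bound. With dim probes kept, the difference by limma was 1.13 ± 0.95 (SE; adjusted p = 0.535). Without KO-labelled heart 2, Ciita entered the test through the other KO-labelled hearts, and the difference was 2.28 (adjusted p = 0.00585). Nlrc5 had 0.13, 0.72 and 0.39 in the KO-labelled hearts and -0.21, -0.28 and -0.70 in the controls. The groups were separate and Nlrc5 was called higher, by 0.81 ± 0.21 (SE; adjusted p = 0.0231). That call was lost without KO-labelled heart 2 (0.0523) or 3 (0.0639), without control heart 1 (0.0510) or 3 (0.0776), with the replicate block (0.0520) and with dim probes kept. Its other probe was above background on no array.

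Class I heavy chains gave few calls. Of 23 such genes with a probe, 12 were tested, 1 was called higher and 0 lower by limma (1 lower at an unadjusted p under 0.05), and 11 did not pass. Over all features 16.1% were called higher and 23.0% lower. Their median log2 difference was 0.25 with a range of -0.38 to 0.70, and 10 of the 12 were positive. The classical chain H2-K1 (NM_001001892), which presents peptides to CD8+ T cells, had 5.93, 6.76 and 6.34 in the KO-labelled hearts and 5.72, 6.04 and 5.66 in the controls. Only KO-labelled heart 1 lay among the controls, and the difference of 0.53 ± 0.23 (SE) did not pass (adjusted p = 0.105). It was 0.74 without that heart (adjusted p = 0.0385) and 0.33 without KO-labelled heart 2 (adjusted p = 0.233). Another H2-K1 probe gave a smaller difference of 0.25, also with overlap, and the mean of the gene's probes gave 0.39 (adjusted p = 0.2155). H2-D1 (NM_010380), the other classical chain, had 5.49, 6.12 and 5.69 in the KO-labelled hearts and 5.35, 5.74 and 5.25 in the controls. The hearts were interleaved and the difference was 0.32 ± 0.21 (adjusted p = 0.260), or 0.14 without KO-labelled heart 2.

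Among the non-classical chains, H2-M3 presents formylated peptides. It had 0.26, 0.71 and 0.49 in the KO-labelled hearts and -0.13, 0.02 and -0.12 in the controls, with no overlap. It was called higher by 0.56 ± 0.15 (SE; adjusted p = 0.0261), and the call was lost without KO-labelled heart 2 (0.0601) or 3 (0.0779), without control heart 1 (0.0924) or 3 (0.0914) and with no filter. The widest positive difference was that of H2-Q8, with 0.94, 2.63 and 1.80 in the KO-labelled hearts and 1.21, 1.34 and 0.71 in the controls. It did not pass (0.70 ± 0.42, adjusted p = 0.219). The value rested on single hearts, at 1.13 without KO-labelled heart 1 (adjusted p = 0.0420) and 0.28 without KO-labelled heart 2 (adjusted p = 0.514). H2-T10 differed by 0.46 (adjusted p = 0.128), and without control heart 2 passed at 0.0327. H2-T24 and H2-Q4 were on the other side of 0, at -0.38 (adjusted p = 0.0623) and -0.28 (adjusted p = 0.147), and H2-T24 passed under quantile scaling (0.0498). The differences of H2-Q7, H2-T23, H2-Q2, H2-Q6 and H2-Q10 were between 0.06 and 0.27 with adjusted p of 0.336 or more, and those of H2-Q6 and H2-Q10 changed sign with the heart left out. The other 11, of the M, Q and T series, were dim: H2-M10.6 was above background in 1 KO-labelled heart, and the remaining 10 on no array.

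The class I heavy chains shared an order of hearts. KO-labelled heart 2 was the highest of its group for 10 of the 12 and control heart 2 the highest of its group for 10 of the 12. Both lay in row 2 of the slide, and the part of the row in this order was not tested. Their mean deviation from the control mean was -0.03, 0.54 and 0.18 in the KO-labelled hearts and -0.04, 0.22 and -0.18 in the controls, so the 2 groups overlapped. Without KO-labelled heart 2 the median difference was 0.09 and 8 of the 12 were positive. These genes are close copies of one another, the files used here give no probe sequences, and their probes may share signal, so the 12 values are not 12 separate measurements. H2-K2, a transcribed pseudogene of the same family, was likewise positive without passing (0.32 ± 0.23, adjusted p = 0.297).

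Beta-2-microglobulin, the light chain that all class I molecules share, was called higher. B2m (NM_009735) had 6.25, 6.75 and 6.54 in the KO-labelled hearts and 5.75, 5.90 and 5.64 in the controls. No KO-labelled heart lay among the controls, and the difference of 0.75 ± 0.16 (SE; adjusted p = 0.0138) was 1.68-fold. The call was lost without control heart 1 (0.0543) or control heart 3 (0.0587) and with no filter on dim probes (0.0525), where the difference itself stayed at 0.69 or more.

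The 180 bases before the starts of B2m, at chr2:122147507-122147686 (plus strand), and H2-D1, at chr17:35262914-35263093 (plus strand), are shown for contrast with the class II genes, again from RefSeq on GRCm38.p6. In B2m, capitals mark GAAA, any 2 bases and GAAA, a form of the element that interferon regulatory factors bind. In H2-D1, they mark GGGGA, any base and TCCCC, a palindrome bound by NF-kappaB, and in both they mark CCAAT or ATTGG.
B2m: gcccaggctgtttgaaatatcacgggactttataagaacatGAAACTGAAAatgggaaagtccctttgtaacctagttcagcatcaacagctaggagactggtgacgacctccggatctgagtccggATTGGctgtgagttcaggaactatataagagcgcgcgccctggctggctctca
H2-D1: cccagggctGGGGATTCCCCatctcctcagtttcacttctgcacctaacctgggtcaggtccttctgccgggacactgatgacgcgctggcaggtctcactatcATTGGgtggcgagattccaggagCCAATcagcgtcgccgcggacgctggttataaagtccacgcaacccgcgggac
The interferon regulatory factor element was in 3.44% of all windows, in 1 of the 21 class I heavy chain entries, that of H2-T23, in 1 of the 10 class II entries, that of Ctss, and also before B2m and Erap1. The NF-kappaB palindrome was in 0.0487% of all windows and in 4 of the 21 class I heavy chain entries, both starts of H2-K1 among them. CCAAT was in 18 of the 21. These motifs too were chosen after the sequences were read. Of the 4 genes with the interferon regulatory factor element, B2m and Ctss were called higher and Erap1 (-0.30) and H2-T23 (0.22) did not pass. H2-K1, H2-D1 and H2-Q6, which hold the palindrome, did not pass.

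Peptide supply to class I gave 1 call among 7 genes, a higher one, where 16.1% of all features were called higher and 23.0% lower. Psmb8, an immunoproteasome subunit, had 2.78, 3.32 and 3.01 in the KO-labelled hearts and 2.46, 2.59 and 2.43 in the controls. The KO-labelled hearts were all higher, by 0.55 ± 0.16 (SE; adjusted p = 0.0375). The call was lost without KO-labelled heart 2 (0.0773) or 3 (0.0935), without control heart 1 (0.115) or 3 (0.121), with the replicate block (0.0581) and with dim probes kept. Psmb9, its partner subunit, had 2.60, 3.32 and 2.92 in the KO-labelled hearts and 2.56, 2.59 and 2.17 in the controls. These just missed overlapping, and the difference of 0.51 ± 0.22 did not pass (adjusted p = 0.106; 0.0419 with normexp), and was 0.32 without KO-labelled heart 2. Psmb10, the remaining inducible subunit, had 5.49, 5.91 and 5.70 in the KO-labelled hearts and 5.82, 5.45 and 5.75 in the controls, with the groups interleaved (0.03 ± 0.16, adjusted p = 0.905) and a sign that turned with the heart left out. Erap1, the aminopeptidase that trims peptides in the endoplasmic reticulum, had -2.28, -1.25 and -1.59 in the KO-labelled hearts and -1.32, -1.85 and -1.05 in the controls. It also overlapped and did not pass (-0.30 ± 0.31, adjusted p = 0.474), and the difference was -0.01 without KO-labelled heart 1 and -0.53 without KO-labelled heart 2.

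Tap1 and Tap2 form the pump that carries peptides into the endoplasmic reticulum, and Tapbp (tapasin) bridges the pump to the class I chain. Tap1 had -0.85, -0.62 and -0.84 in the KO-labelled hearts and -1.10, -0.70 and -1.39 in the controls. Tap2 had 3.55, 4.25 and 3.88 in the KO-labelled hearts and 4.15, 3.90 and 3.97 in the controls. Both overlapped: Tap1 differed by 0.29 ± 0.19 (SE; adjusted p = 0.260) and Tap2 by -0.12 ± 0.19 (adjusted p = 0.659), and Tap2 turned positive under quantile, cyclic loess and spike-in scaling (0.03, 0.03 and 0.12). Tapbp had 3.82, 3.97 and 3.99 in the KO-labelled hearts and 3.68, 3.70 and 3.59 in the controls. Its groups were separate, the difference of 0.27 ± 0.11 missed the threshold (adjusted p = 0.0942), and it passed with normexp (0.0179), quantile (0.0344) and cyclic loess scaling.

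**Figure D4:**
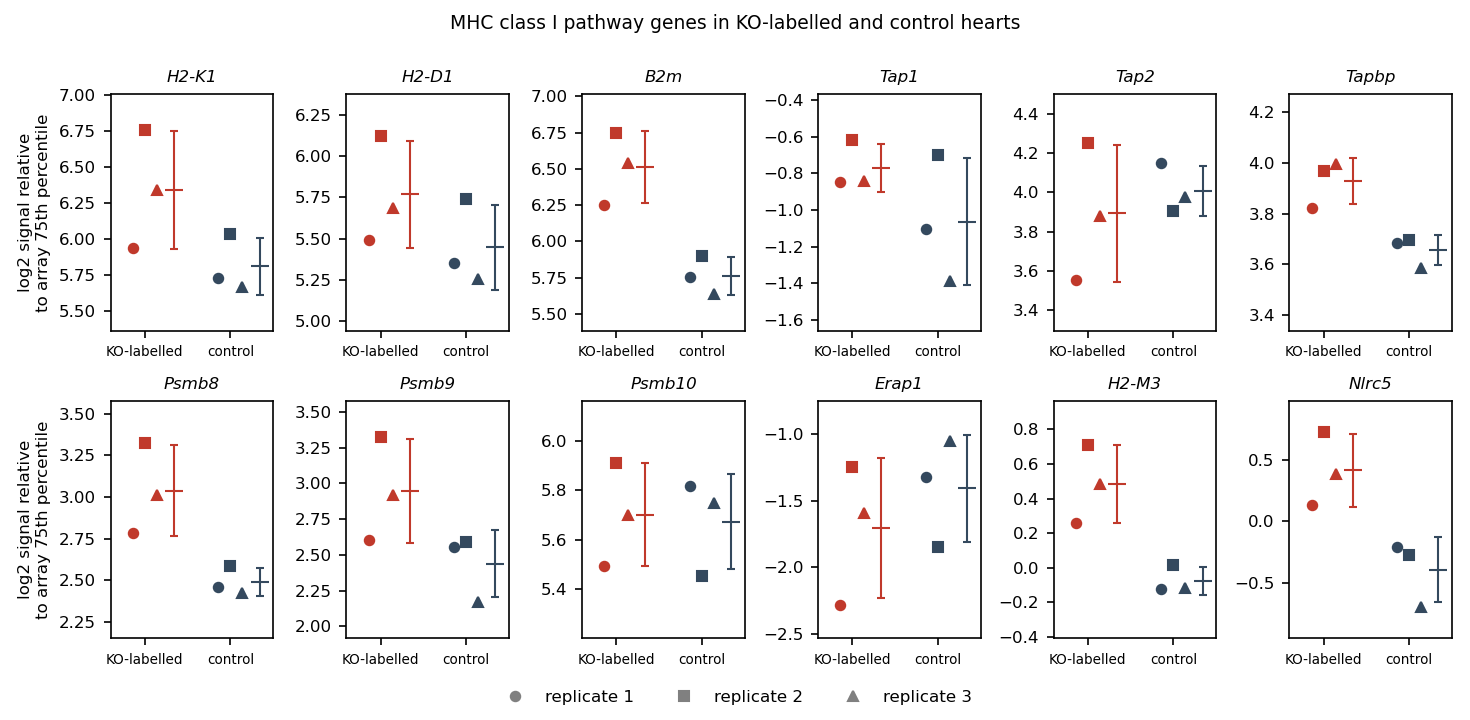
Log2 signal minus that array's 75th percentile (y axis, its own range in each panel) of 11 class I pathway genes and the transactivator Nlrc5 in each KO-labelled and control heart, with the mean and SD of 3 hearts; marker shape gives the replicate number. B2m, Psmb8, H2-M3, Nlrc5, Tapbp and Psmb9 separate the groups, and H2-K1, H2-D1, Tap1, Tap2, Psmb10 and Erap1 do not. Over all features, 22.7% had every KO-labelled heart above every control and 33.1% the reverse.

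The single fall was that of H2-Ke6, listed in RefSeq also as Hsd17b8, a hydroxysteroid dehydrogenase named for its place in the H2 region. It had 4.04, 4.45 and 4.31 in the KO-labelled hearts and 5.17, 4.88 and 5.20 in the controls. Every KO-labelled heart was below every control, by -0.82 ± 0.16 (SE; adjusted p = 0.00990). Under spike-in scaling the difference was -0.59 (adjusted p = 0.0235).

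Genes that serve the same pathways outside the named set were read from lists. The counts of these and of the marker lists stand beside 16.1% called higher and 23.0% called lower over all features. Of 10 loading chaperones and other class I path genes, 2 were higher and 1 lower: the translocon channel Sec61a1 (0.90) and the disulfide isomerase Pdia3 (0.73) were higher, and the proteasome activator subunit Psme1 was lower (-0.74). The 3 constitutive proteasome subunits that the inducible ones replace gave 0 calls by limma and 2 at an unadjusted p under 0.05, with Psmb6 and Psmb7 each at -0.41 (adjusted p = 0.0703 and 0.0968), of which Psmb6 passed without control heart 2 (-0.53, adjusted p = 0.0266). Of 8 genes of the class II compartment tested, 3 were higher, namely the thiol reductase Ifi30 (1.45), cathepsin B Ctsb (0.72) and the tetraspanin Cd63 (0.72). The ubiquitin ligase Marchf8 was lower (-0.37).

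The complex that binds the X and Y boxes did not move one way. Of 6 genes tested, the NF-Y subunit Nfya was higher (0.47), while Nfyc (-0.56) and the RFX subunit Rfxank (-0.58) were lower, and Rfx5 was above background on no array. Among 16 interferon signalling genes tested, 5 were higher and 1 lower. The lower one was the interferon gamma receptor chain Ifngr2 (-0.75, adjusted p = 0.0409), while the other chain, Ifngr1, was higher (0.44, adjusted p = 0.0464). Neither chain was run under the alternatives. Irf8, a factor of dendritic cell and macrophage development, was higher by 1.49 ± 0.12 (SE; adjusted p = 0.00161), with 2.73, 2.60 and 2.51 in the KO-labelled hearts and 1.05, 1.27 and 1.06 in the controls. The inhibitor Socs1 was higher by 1.42, the factor Stat2 by 0.52 and the receptor chain Ifnar1 by 0.45. Irf1 (0.03, adjusted p = 0.867), an interferon regulatory factor of class I genes, did not pass. Of 6 genes for T cell costimulation and adhesion tested, Cd48 (1.38), Cd40 (1.01) and Cd86 (0.61) were higher and the other 3 did not pass.

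Of 8 class I-like molecules tested outside the H2 complex, 3 were higher and 1 lower. Ulbp1, a stress ligand for natural killer cells, was above background in 3 KO-labelled hearts and 0 controls, and was called higher (adjusted p = 0.00933). Its KO-labelled mean was 2.81-fold above the controls raised to the lowest signal above background. The endothelial protein C receptor Procr was higher by 1.59. Raet1e, a ligand of the same receptor as Ulbp1, was above background in 3 KO-labelled hearts and 1 control and was called higher. Azgp1 was above background in 1 KO-labelled heart and 3 controls and was called lower. Ulbp1, Raet1e and Azgp1 each entered the test through the group where they were brighter, so these calls lean on that filter. With no filter on dim probes limma's adjusted p for them were 0.0305, 0.0429 and 0.0255. The sizes are uncertain: 2.41 for Raet1e and -1.46 for Azgp1, but 1.06 and -0.59 with normexp, where Ulbp1 differed by 0.38. The fixed rule named 21 genes from these pathway lists that passed. Of these, 8 also passed under every alternative that could test them: Sec61a1, Azgp1, Ulbp1, Irf8, Socs1, Cd48, Cd40 and Cd86. Rfxank lost its call under spike-in scaling alone, and the other 12 lost theirs without control heart 1 and without control heart 3, alone or among other settings.

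The remaining marker lists describe the cells around these genes. Of 7 T cell markers tested, 2 were called higher, Thy1 by 1.31 among them, and Cd3e did not pass (0.23, and -0.10 without KO-labelled heart 2). The other call, Cd3d, was above background in 3 KO-labelled hearts and 1 control, and entered the test only through the KO-labelled group. The summed signal of the T cell list was 25.3 to 50.9 in the KO-labelled hearts and 13.4 to 14.6 in the controls, with KO-labelled heart 2 the highest. Thy1, the brightest gene of that list, stood at 4.33, 4.83 and 4.34 in the KO-labelled hearts and 3.04, 3.33 and 3.20 in the controls. It supplied most of the sum in each heart, so the sums of KO-labelled hearts 1 and 3 describe mainly that gene. The 3 natural killer cell markers tested, Nkg7 (0.29) and Gzma (0.82) among them, did not pass. Averaged over its probes, Nkg7 passed (1.35, adjusted p = 0.0160), and without KO-labelled heart 2 Gzma differed by 0.19. The 3 neutrophil markers tested did not pass, with S100a9 at 2.29 (1.04 without KO-labelled heart 1) and Csf3r at -0.32, which passed without control heart 2 (-0.41, adjusted p = 0.0338). The 9 endothelial markers, the cell type with much of the heart's class I, gave 0 calls by limma and 2 at an unadjusted p under 0.05. Those 2 were Tek (-0.69, adjusted p = 0.0666) and Pecam1 (-0.53, adjusted p = 0.0890). Both had every KO-labelled heart below every control, as had 33.1% of all features. The brightest markers, Egfl7 at 0.08 and Vwf at -0.12, turned sign under an alternative. Of 6 fibroblast markers 3 were higher, with Col1a1 at 2.64 and Dcn, which did not pass, at -0.23 and at 0.004 under cyclic loess scaling. Of 8 cardiomyocyte markers 6 were lower, Actc1 by -0.56 and Myh6 by -0.67 among them, and their summed signal was 4620 to 5540 in the KO-labelled hearts and 6800 to 9220 in the controls. Of 5 erythroid markers tested, Hba-a2 was lower (-0.57) and Hba-a1 did not pass (-0.40). The calls of Actc1, Myh6 and Hba-a2 were lost under quantile, cyclic loess and spike-in scaling. Among the other cardiomyocyte calls, Tnni3 (-1.57) and Ryr2 (-0.83) had wider differences, and they were not run under the alternatives. The part of these shifts in the MHC values was not tested.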

How the data were processed

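RNA of 6 mouse hearts, 3 KO-labelled and 3 control, was measured on 1-colour arrays. The deposited scanner files hold intensity values, background-subtracted and detrended by Agilent Feature Extraction 11.0.1.1 per the file headers, with no scaling between arrays. Flags for spots above background, saturated or outlying are other columns of the same deposited files, set by that software. The deposited value table holds log2 values. The submitters' processing notes name R 3.1.3 beside Feature Extraction, and how the authors scaled this table is not stated there.

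Processed signals were put on the log2 scale, outlier spots were left out (73 of 55681 probes lost), repeated spots were averaged, and each array's 75th percentile was subtracted. RefSeq accessions named 26551 of 55608 probes and left 29057 unnamed. A probe entered the test when every array of 1 group or the other flagged it above background, and a gene was read from its brightest probe. The test was limma 3.58.1 in R 4.3.3 (data.table, version 1.17.8), 2-sided, with Benjamini-Hochberg adjustment over 20014 features at 0.05, checked on simulated data. For 1 gene, an exact permutation test of 3 against 3 hearts cannot go below a p of 0.1. The number of arrays limits the precision, and signals above background were 46.3% to 51.0% of probes.

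The folds of Ulbp1, Ciita and Clec9a set the KO-labelled mean against control values raised to the lowest signal above background on each array. Only for Ulbp1 were all KO-labelled hearts above background. Genes were named by role, and from each pathway list up to 4 passing genes with the smallest p (the 2 smallest where fewer than 2 passed) and from each marker list the 2 brightest. Other genes named from these lists, such as Irf1, Lck, Cx3cr1, Itgax, Xcr1, Clec9a, Pax5, Blk and Rfx5, were chosen after their values were seen. So were Tek, Pecam1, Ifngr1, Ifngr2, Tnni3 and Ryr2. The genes, roles and lists were chosen with earlier results of these data known. The alternatives were normexp correction (offset 50), quantile, cyclic loess and spike-in scaling, other filters, the mean of a gene's probes, the deposited table, another variance model, the replicate block and leaving out each heart. Normexp used the median rather than the mean spot signal, which the files used here do not give. The labels give no pairing by replicate number, though the number is also the row of the slide. Deviations of same-numbered hearts from their group means correlated at -0.15, -0.12 and -0.08 across genes. With 3 hearts per group these values cannot exclude a pairing.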

Additional observations from a re-analysis of the deposited data

How the results depend on the processing

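Of the 13 genes called among the 32, 9 passed under all of the 16 alternatives that could test them (H2-Aa, H2-Ab1, H2-Eb1, Cd74, Ctss, H2-DMa, H2-DMb1, H2-Oa and H2-Ke6), while B2m, H2-M3, Psmb8 and Nlrc5 lost the call under 3 to 6. The number higher was 8 with dim probes kept, 14 with normexp and 8 to 14 with 1 heart left out. The number lower was 2 under quantile scaling, through H2-T24. The median difference of those of the 32 genes tested in each run was 0.30 to 0.72 (0.30 to 0.59 with 1 heart left out). Over all features, 7822 were called, 4335 with dim probes kept, where more features were tested, and 3899 to 8693 with 1 heart left out (5116 without KO-labelled heart 3, 4024 without control heart 3). With the replicate block, which is also a block by slide row, 4861 were called, and among the 32 genes 10 were higher, Psmb8 and Nlrc5 losing their calls. Of all calls 41.1% were higher, against 55.3% under cyclic loess and 57.3% under spike-in scaling, which moved the median of all features by 0.14 and 0.23. H2-Ke6 stayed lower and the 8 class II calls higher under both.

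The signs that turned were those of small differences, given here with the range over hearts left out. Without 1 heart, H2-Q6 ranged over -0.096 to 0.264, H2-Q10 over -0.0634 to 0.221, Psmb10 over -0.081 to 0.132, Cd3e over -0.0998 to 0.495 and Egfl7 over -0.0745 to 0.237. Tap2 turned under quantile (0.0294), cyclic loess (0.0315) and spike-in scaling (0.115), and ranged over -0.294 to 0.0541. Siglech turned with normexp (0.032), quantile (0.111), cyclic loess (0.106) and spike-in scaling (0.139) and with the mean of its probes (0.720, where it was called higher), and ranged over -0.207 to 0.0152. Vwf turned under quantile (0.0612), cyclic loess (0.0581) and spike-in scaling (0.109), and ranged over -0.275 to 0.0655. Dcn turned under cyclic loess (0.004) and spike-in scaling (0.003). The cause was not tested. A slide block was not run, since the arrays shared 1 slide. Near background the size of a difference depends on the correction, as for H2-Oa.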
